A study of Mus musculus with 24 samples.

Results

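Advillin (*Avil*) and 6 transcription factors that mark or build sensory neurons (*Isl1*, *Pou4f1*, *Pou4f2*, *Pou4f3*, *Runx1* and *Prrxl1*) were followed in mouse spinal nerve roots during the first weeks after birth. All 7 genes were found by the gene name on the array, among 24814 gene names, and they were measured by 13 of its 56605 gene probes. All 13 were among the 36409 tested probes, for which some group had all of its 3 arrays well above background. Where a gene had several probes, the one with the highest mean over the 24 arrays was reported as probe 1, with the others beside it.

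The tissue came from C57BL/6 mice of both sexes, with no genetic change or treatment in any group. Efferent nerve fibres (EN, the ventral root) and afferent nerve fibres (AN, the dorsal root) of segments L4-L6 were taken on the day of birth (P0) and after 1, 3 and 5 weeks (called 1 W to 5 W), and each of the 8 groups was hybridised to 3 Agilent arrays. The study used 9 animals per age, pooled the tissue of a group in 1 tube and described 3 independent experiments. The 3 arrays of a group therefore do not stand for 3 single animals. In the main fit p-values measure the spread between arrays within groups, pooled over all 8 groups and not only those compared. For *Avil* probe 1 the SD was 0.19 in 1 W AN and 2.96 in 3 W AN, yet the root difference had an SE of 1.02 at every age. All values are the authors' quantile-normalised log2 signals, where a difference of 1 is a doubling of signal, and differences are afferent minus efferent or later age minus P0. A root or an age difference was called where limma's Benjamini-Hochberg adjusted p, taken over all tested probes, was below 0.05 and the fold change was above 2.

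Primary sensory neurons have their cell bodies in the dorsal root ganglia, whereas the ventral root carries axons of motor neurons whose cell bodies lie in the spinal cord. Isl1, a LIM homeodomain protein, and Pou4f1 (Brn3a), a POU homeodomain protein, together direct the general programme of sensory neurons, and Isl1 also takes part in specifying motor neurons. Pou4f2 and Pou4f3 (Brn3b and Brn3c) are close relatives of Pou4f1 and are also known from retinal ganglion cells and from hair cells of the inner ear. Runx1, a runt domain factor, directs the diversification of pain-sensing neurons and is equally known from blood cells, and Prrxl1 (Drg11) is a paired-type homeodomain factor needed for the wiring of pain circuits. Advillin is an actin-binding protein of the gelsolin and villin family, and its gene is widely used to direct expression to peripheral sensory neurons.

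The sequences of 4 probes are shown 5′ to 3′. Of these, only *Pou4f1* probe 1 gave another picture than the other probes of its gene. The probes of *Runx1* also disagreed but are not shown. The positions are those of the array's own annotation on mm9. Advillin probe 2 covers 60 bases of transcript within a 525-base interval of chromosome 10 (126453541 to 126454065, plus strand). The 60-base probe of *Prrxl1*, the only one for this gene, lies at chromosome 14, 33421580 to 33421639, plus strand. *Pou4f1* probe 1 lies at chromosome 14, 104863312 to 104863371, minus strand, and its first 30 bases are given with a run of GA pairs in capitals. *Isl1* probe 2 lies at chromosome 13, 117099604 to 117099663, minus strand, and its last 27 bases are given with an ATG in capitals, whose place in the coding sequence was not checked.
Avil probe 2: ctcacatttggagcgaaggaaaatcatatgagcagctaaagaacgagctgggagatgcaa
Prrxl1 probe: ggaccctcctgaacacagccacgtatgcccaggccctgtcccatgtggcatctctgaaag
Pou4f1 probe 1, bases 1 to 30: gagaaagaaaGAGAGAGAGAGAGAaatgtg
Isl1 probe 2, bases 34 to 60: ATGggagacatgggcgatccaccaaaa
The run of 14 bases in *Pou4f1* probe 1 was rare, being present in 15 of the 56605 gene probes (0.0265%). Those 15 probes had a median level of 15.29, against 6.26 for the probes without the run, and 14 of the 15 lay above 10.

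What limits an array is its signal above background. Over the 24 arrays the median signal ranged from 45.4 to 191 scanner units against local backgrounds of 23 to 46, no spot was saturated, and the lowest normalised log2 value still well above background lay between 3.71 and 5.87. The afferent and efferent arrays with the same replicate number always shared a slide, whereas all arrays of 3 W were on 1 slide. That slide held no array of P0, so differences between 3 W and P0 are also differences between slides. One array stood apart for the genes described here. The 3 W afferent replicate 3 had a summed signal (the log2 of the sum) of 7 neuronal marker genes (*Tubb3*, *Elavl4*, *Snap25*, *Uchl1*, *Stmn2*, *Rbfox3* and *Map2*) of 18.73, against 15.36 and 14.99 on the other 3 W afferent arrays. On that array *Avil* read 15.20, against 10.42 and 9.79, and the 8 probes of *Avil*, *Isl1*, *Pou4f2*, *Pou4f3* and of *Pou4f1* other than probe 1 had either this array or P0 afferent replicate 2 as their highest of 24, with 4 probes each. For many results at 3 W the value without this array is given too.

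At P0 the levels in the roots overlapped for each of the 7 genes. Advillin probe 1 read 12.93, 14.27 and 12.62 on the afferent and 12.37, 12.83 and 13.18 on the efferent arrays. *Isl1* probe 1 read 9.01, 10.20 and 8.71 on the afferent and 8.52, 9.13 and 9.51 on the efferent arrays. No array set one root apart, and the same held for the other 11 probes. The fitted difference was 0.48 ± 1.02 for advillin (± SE, 95% interval -1.66 to 2.62) and 0.25 ± 1.1 for *Isl1* (-2.05 to 2.56). The arrays thus leave room for a difference of either sign within these intervals, which are not the limit of what could be called. None of the 7 genes was called, while 0.0714% of all tested probes were called higher in AN at this age. Through an unadjusted p below 0.05 with the fold threshold, limma also called none of the 7, and 1.12% of all tested probes in either direction.

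At 1 W the roots came apart for 4 of the 7 genes through their brightest probe, *Avil*, *Isl1*, *Pou4f2* and *Pou4f3*, all higher in AN, and for *Pou4f1* through its other 2 probes. Of all tested probes, 2.41% were called higher in AN at 1 W. Advillin probe 1 read 13.49, 13.88 and 13.71 on the afferent arrays and 7.55, 8.24 and 9.28 on the efferent arrays. The efferent arrays lay far below the afferent ones, without overlap. The fitted difference was 5.34 ± 1.02 (40.4-fold, adjusted p = 0.0060 in limma), and the 3 pairs of a slide gave 5.94, 5.64 and 4.43. *Avil* probe 2 gave 5.74 ± 1.01 (adjusted p = 0.0042), and as it was not well above background on any efferent array the signal was at least 41.3-fold higher in AN.

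*Isl1* probe 1 at 1 W read 8.33, 8.71 and 8.93 on the afferent and 2.73, 3.09 and 5.37 on the efferent arrays, of which only the last was well above background. The groups did not overlap, and the difference was 4.93 ± 1.1 (adjusted p = 0.0139). *Isl1* probe 2, which holds the ATG shown above, gave 4.56 ± 1.06 (adjusted p = 0.0175, at least 8.96-fold). The call for probe 1 was lost without afferent replicate 3 (4.79, adjusted p = 0.0629), efferent replicate 1 (4.43, 0.0904) or efferent replicate 2 (4.61, 0.0703) of 1 W, and that for probe 2 without any 1 of the afferent arrays or of efferent replicates 1 and 2 (4.07 to 4.63, adjusted p from 0.0573 to 0.106).

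The 3 POU factors, *Pou4f1* by probes 2 and 3, were likewise higher in AN at 1 W. *Pou4f1* probe 2 read 8.14, 8.48 and 8.30 on the afferent arrays, and 2.72, 4.31 and 4.22 on the efferent arrays, none of the latter well above background. Its difference was 4.56 ± 0.90 (adjusted p = 0.0071, at least 10.8-fold), and *Pou4f1* probe 3 gave 3.73 ± 0.78 (adjusted p = 0.0093, at least 2.72-fold). Without 1 W efferent replicate 1 the call of *Pou4f1* probe 2 was lost (4.04, adjusted p = 0.0553).

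*Pou4f2* read 7.98, 8.23 and 8.71 on the afferent and 4.43, 5.54 and 5.86 on the efferent arrays of 1 W. The groups did not overlap, and 2 of the 3 efferent arrays were well above background. The difference of *Pou4f2* was 3.03 ± 0.73 (8.15-fold, adjusted p = 0.0228). It lost its call without any 1 of the 3 afferent arrays or of efferent replicates 1 and 2, with differences from 2.60 to 3.19 and adjusted p from 0.0578 to 0.139. *Pou4f3* read 6.39, 7.05 and 6.67 in AN against 2.62, 2.62 and 2.73 in EN, where no array was well above background. Its difference was 4.05 ± 0.79 (adjusted p = 0.0070, at least 3.55-fold), and the calls of *Pou4f3* and of both advillin probes held in all 24 fits that left out 1 array. However, *Pou4f3* passed the filter only through 1 W AN, the one group with all 3 of its arrays well above background. Its call as higher in that group is therefore not independent of the filter. With normexp background correction of the scanner signals the differences were smaller, 2.44 for *Isl1*, 1.86 for *Pou4f2* and 1.26 for *Pou4f3*, and the last was no longer called (adjusted p = 0.0527).

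**Figure D1:**
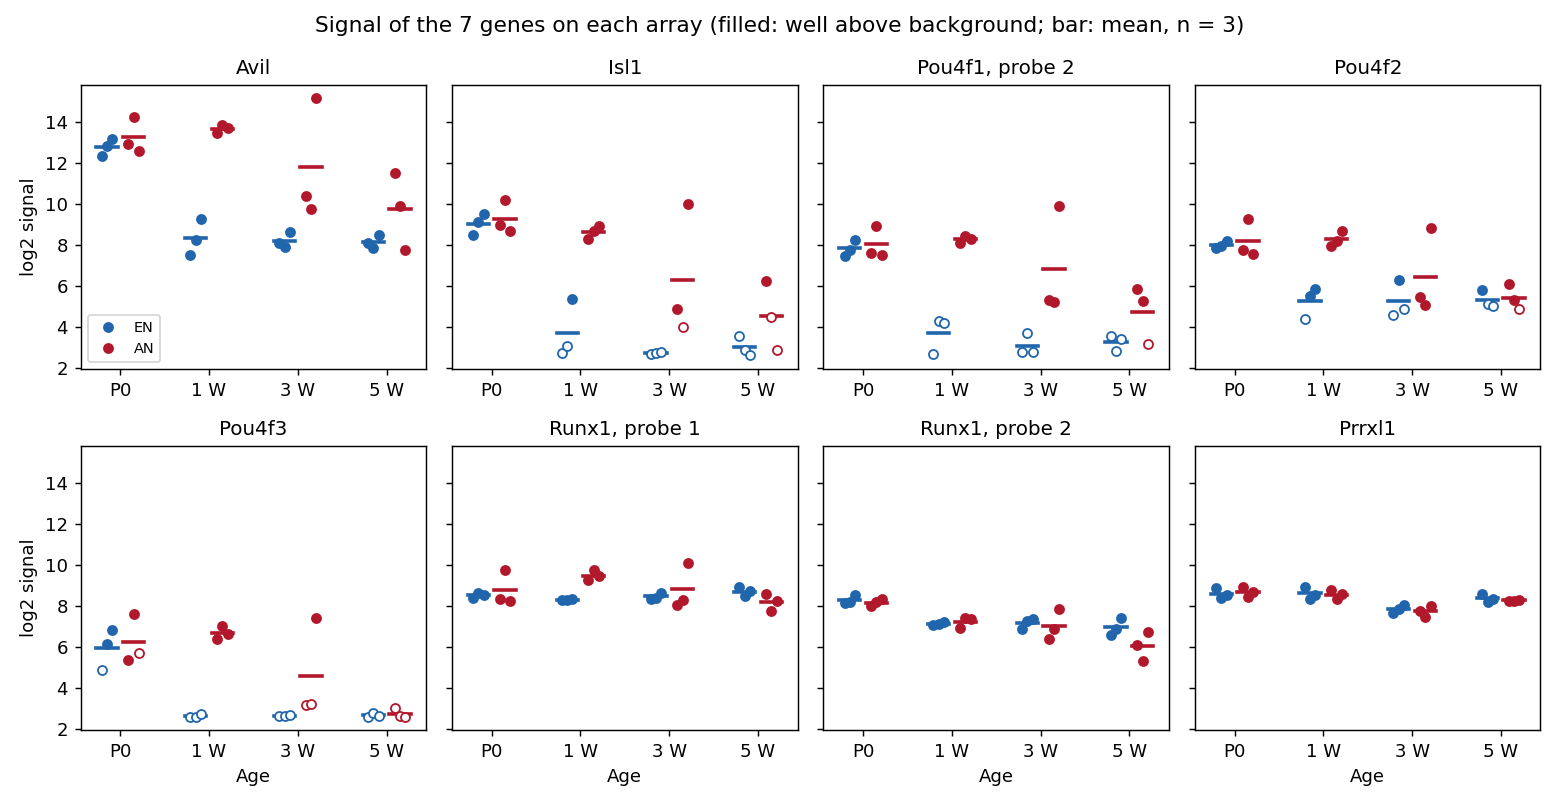
Each point is the log2 signal of 1 array for the 7 genes at the 4 ages, with efferent arrays (EN) in blue, afferent arrays (AN) in red, bars at the mean of 3 arrays and open points for signals not well above background. *Avil*, *Isl1*, *Pou4f1* (probe 2), *Pou4f2* and *Pou4f3* are level between the roots at P0 and separate at 1 W, 3 W afferent replicate 3 lies far above the other afferent arrays of 3 W, and *Prrxl1* stays between 7.50 and 8.97 throughout.

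*Runx1* and *Prrxl1* were not among the genes called at 1 W. The brightest of 3 *Runx1* probes read 9.27, 9.77 and 9.47 on the afferent and 8.33, 8.33 and 8.35 on the efferent arrays of 1 W. These groups did not overlap, yet the difference of 1.17 ± 0.41 was not called (adjusted p = 0.151). With the afferent and efferent arrays of a replicate number as a pair, *Runx1* probe 1 was called (adjusted p = 0.0497), and so it was without 3 W afferent replicate 3 (1.17, adjusted p = 0.0184). *Runx1* probes 2 and 3 differed between the roots at 1 W by 0.09 ± 0.33 and 0.37 ± 0.48, so that the probes of this gene disagreed. Probe 1 was also highest on 3 W afferent replicate 3, at 10.11 against 8.08 and 8.30 on the other 3 W afferent arrays.

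*Prrxl1* read 8.78, 8.35 and 8.60 in AN and 8.97, 8.37 and 8.56 in EN at 1 W. The roots overlapped, with a difference of -0.05 ± 0.19 (adjusted p = 0.955). Over the 4 ages the fitted root difference of *Prrxl1* stayed between -0.11 and 0.08, and the probe was well above background on all 24 arrays.

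At 3 W only advillin was called through its brightest probe, while 2.23% of all tested probes were called higher in AN. Advillin probe 1 read 10.42, 9.79 and 15.20 in AN and 8.13, 7.94 and 8.63 in EN. All afferent arrays lay above all efferent arrays, and one of them far above the rest. The difference was 3.57 ± 1.02 (adjusted p = 0.0451), and it was not called where dim probes were kept in the fit. Without 3 W afferent replicate 3 it was 1.87 (adjusted p = 0.201). It was not called either, with an adjusted p of 0.101 to 0.134 without any 1 of the 3 W efferent arrays. The call held in only 7 of the 24 fits that left out 1 array. In the other 13 fits that lost it, which left out an array of another age, the adjusted p was 0.0513 to 0.0567. *Avil* probe 2 gave 3.41 ± 1.01 (adjusted p = 0.053, and 0.0278 with the pairing), with no overlap.

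For *Isl1* probe 1 the 3 W afferent arrays read 4.90, 4.03 and 10.02 and the efferent arrays 2.70, 2.74 and 2.78. None of the efferent and 2 of the afferent arrays were well above background. The difference of 3.58 ± 1.1 was not called (adjusted p = 0.0629), but it was with the pairing (adjusted p = 0.0285). *Pou4f1* probe 2 read 5.33, 5.25 and 9.91 against 2.79, 3.71 and 2.78 and was called (3.73 ± 0.90, adjusted p = 0.019, at least 3.87-fold). Without 3 W afferent replicate 3 this call was lost as well (2.19, adjusted p = 0.0644), as it was without efferent replicate 1 (3.58, 0.0747) or 3 (3.58, 0.076). *Isl1* probe 2 gave 3.35 ± 1.06 (adjusted p = 0.07, and 0.0438 with the pairing). *Pou4f2* and *Pou4f3* differed by 1.2 ± 0.73 and 1.94 ± 0.79 and were not called. Without 3 W afferent replicate 3 the difference was 1.72 ± 0.78 for *Isl1* and 0.01 ± 0.55 for *Pou4f2*, for *Pou4f3* neither root had an array left with signal well above background, and none of the 13 probes was called at 3 W.

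At 5 W no member was called by any of its probes, against 2.49% of all tested probes called higher in AN, and an unadjusted p below 0.05 with the fold threshold called none of the 7 brightest probes, against 5.62% of all tested probes in either direction. Advillin probe 1 read 11.52, 9.94 and 7.80 in AN and 8.14, 7.86 and 8.53 in EN. The 2 higher afferent arrays lay above the efferent ones and the third below them, with a fitted difference of 1.58 ± 1.02 (adjusted p = 0.409). *Avil* probe 2 read 8.12, 6.47 and 4.78 in AN and 4.76, 4.02 and 4.24 in EN, of which 2 afferent and 1 efferent arrays were well above background. These groups did not overlap, although the lowest afferent and the highest efferent array were nearly level. The difference of *Avil* probe 2 was 2.12 ± 1.01 (95% interval 0 to 4.23, adjusted p = 0.241), with an unadjusted p of 0.0496 in limma. The afferent array with the lowest advillin, replicate 3, also had the lowest summed neuronal signal of the 5 W afferent arrays (14.64, against 16.29 and 16.47). *Isl1* differed by 1.49 ± 1.1 and *Pou4f1* probe 2 by 1.47 ± 0.90, both against efferent arrays none of which was well above background, *Pou4f2* by 0.10 ± 0.73 and *Prrxl1* by -0.10 ± 0.19. For *Pou4f3* neither root had a 5 W array with signal well above background, so that no difference is given. *Runx1* probe 2 was the one probe with a lower afferent mean by almost the fold threshold (-0.92 ± 0.33, adjusted p = 0.108).

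**Figure D2:**
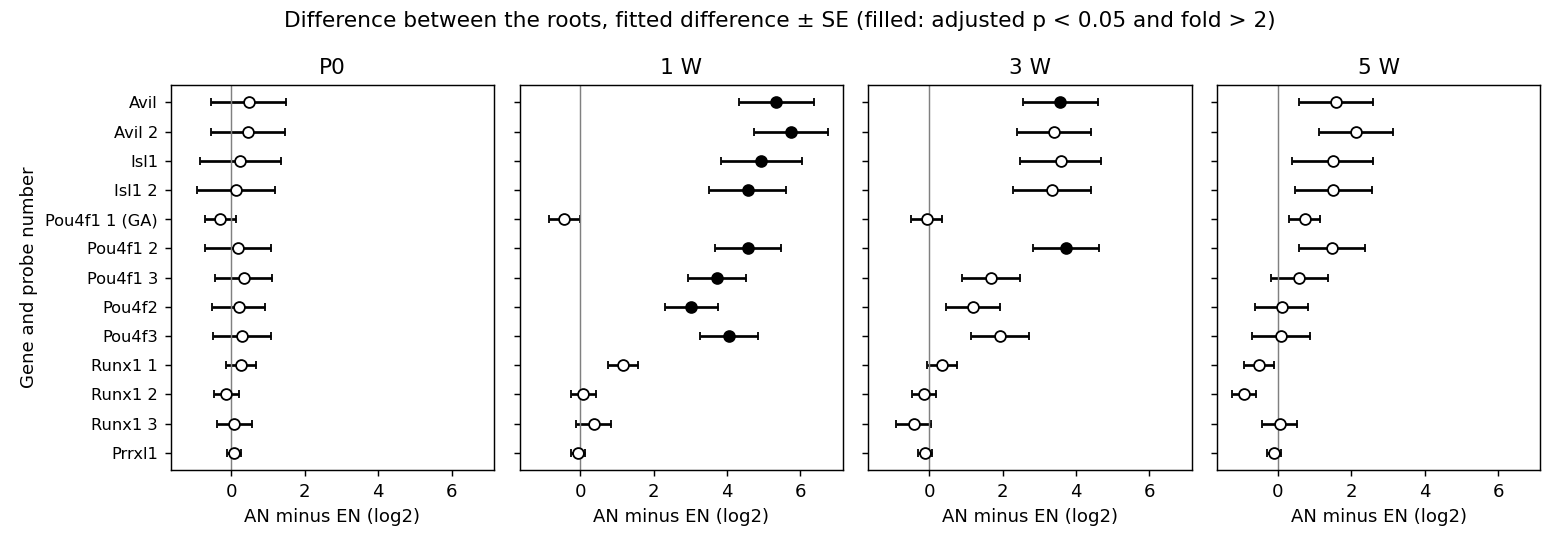
Fitted difference between the roots (AN minus EN, log2, ± SE) for the 13 probes of the 7 genes at each age, with filled points where the adjusted p was below 0.05 and the fold above 2. Nothing is filled at P0 or 5 W, 8 probes of 5 genes are filled at 1 W, and at 3 W only advillin probe 1 (3.57) and *Pou4f1* probe 2 (3.73) are.

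In the ventral root 4 of the genes were lower from 1 W on through their brightest probe. In EN, 5 of the 7 genes were called against P0 at some later age through their brightest probe, where 37.5% of all tested probes were called in either direction. *Avil*, *Isl1*, *Pou4f2* and *Pou4f3* fell, while *Pou4f1* probe 1 rose. *Avil* fell by 4.44 ± 1.02 from P0 to 1 W (adjusted p = 0.0034) and differed from P0 by -4.56 and -4.62 at 3 W and 5 W (adjusted p = 0.0010 and 0.00086). *Isl1* fell by 5.32 ± 1.1 to 1 W (adjusted p = 0.0016), and at 3 W and 5 W, when no efferent array was well above background, it was at least 18.1-fold and 16.1-fold lower than at P0. *Pou4f1* probe 2 was at least 7.90-fold lower at 1 W and 3 W (adjusted p = 0.0025 and 0.00023), and *Pou4f3* at least 2.15-fold lower at both ages.

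From P0 to 1 W in EN *Pou4f2* fell by 2.75 ± 0.73 (adjusted p = 0.0093), which without 1 W efferent replicate 1 was no longer called (-2.32, adjusted p = 0.0542). At 5 W, 4 of the 7 genes were called lower than at P0 in EN, the same 4 as above, where 14.5% of all tested probes were. *Runx1* probe 2 was also lower in EN, with differences of -1.15, -1.11 and -1.33 (each ± 0.33) at the 3 later ages (adjusted p = 0.0144, 0.0085 and 0.0023), while its probe 1 stayed between 8.33 and 8.94 on all 12 efferent arrays. Without P0 efferent replicate 3 the *Runx1* probe 2 calls at 1 W (-1.02, adjusted p = 0.0664) and at 3 W (-0.98, below the fold threshold) were lost, the latter also without 3 W efferent replicate 1 (-0.97).

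In AN none of the 13 probes was called from P0 to 1 W, against 3124 of all 36409 tested probes in either direction. With that share, the lack of a call among 13 probes is not a result about these genes. The difference of *Avil* from P0 to 1 W in AN was 0.42 ± 1.02, and calls of a fall came at later ages. From P0 to 5 W *Avil* fell by 3.52 ± 1.02 (11.5-fold, adjusted p = 0.0075), *Isl1* fell by 4.76 ± 1.1 (27.1-fold, adjusted p = 0.0014) and *Pou4f2* fell by 2.77 ± 0.73 (6.82-fold, adjusted p = 0.0039), while *Pou4f3*, not well above background at 5 W, was at least 3.40-fold lower (adjusted p = 0.0012). These 4 of the 7 genes were called lower in AN at 5 W, where 12.7% of all tested probes were. Of the 3 afferent arrays of 5 W, only 1 was well above background for *Isl1* and 2 for *Pou4f2*. The folds of these 2 genes thus rest in part on signals near background. Counting any later age and either direction, 5 of 7 genes were called in AN, against 35.3% of all tested probes. The gene added by that count was *Pou4f1* through probe 1, with the GA run, which rose. The fall of advillin to 5 W was no longer called without 5 W afferent replicate 3 (-2.55, adjusted p = 0.0562), and without 5 W afferent replicate 1 it was -4.41. Leaving out the same 2 arrays moved *Isl1* to -3.93 and -5.62, without the loss of a call. *Pou4f1* probe 2 fell by 3.28 ± 0.90 to 5 W (9.72-fold, adjusted p = 0.0053), with 2 of the 3 afferent arrays of 5 W well above background. Leaving out 1 array moved this fall to between -3.82 and -2.48, the latter without 5 W afferent replicate 3, and the call held. By probe 3 the level was at least 5.60-fold lower at 5 W (adjusted p = 0.00047). Probe 3 was lower in AN already at 3 W (-2.71 ± 0.78, adjusted p = 0.0069), although without 3 W afferent replicate 1 this was not called (-1.87, adjusted p = 0.0552). On the arrays left without 3 W afferent replicate 3, *Pou4f1* probe 3 was not well above background and at least 5.18-fold lower than at P0 (adjusted p = 1.46e-07). The SE behind that p-value was 0.39, against 0.78 with all arrays. It takes in the efferent groups of 1 W, 3 W and 5 W, with no array well above background and SDs of 0.02, 0.02 and 0.06. The p-value thus rests in part on signals near background. Probe 2 went from -1.22 ± 0.90 (adjusted p = 0.271) to -2.76 ± 0.63 (adjusted p = 0.0015).

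At 3 W the afferent level of *Isl1* was already lower than at P0 (-2.99 ± 1.1, adjusted p = 0.0296), although 3 W afferent replicate 3 lay within the P0 range. That call was lost without P0 afferent replicate 2 (-2.54, adjusted p = 0.102), 3 W afferent replicate 1 (-2.28, 0.133) or 3 W afferent replicate 2 (-1.84, 0.186). Advillin was not called at 3 W (-1.47 ± 1.02, adjusted p = 0.238). Without 3 W afferent replicate 3, however, *Avil* (-3.17 ± 0.74, adjusted p = 0.0017), *Isl1* (-4.84 ± 0.78, adjusted p = 6.85e-05), *Pou4f2* (-2.94 ± 0.55, adjusted p = 0.00028) and *Prrxl1* (-1.05 ± 0.20, adjusted p = 0.00030) were called lower in AN at 3 W, where 14.1% of all tested probes were. *Pou4f3* was called as well, at least 3.14-fold lower (adjusted p = 9.59e-05), both 3 W arrays left being not well above background, and of the 2 left for *Isl1* only 1 was above it. The spread behind the p-values of *Isl1* and *Pou4f3* also takes in groups without an array well above background. The second probes of *Avil* (-3.47 ± 0.69, adjusted p = 0.00047) and *Isl1* (-4.36 ± 0.73, adjusted p = 9.33e-05), not called with all arrays, were called in that fit too. *Runx1* probe 2 in AN differed from P0 by -1.12 ± 0.33 at 3 W (adjusted p = 0.0083) and by -2.13 ± 0.33 at 5 W (4.37-fold, adjusted p = 2.85e-05), the first of which was lost without 3 W afferent replicate 1 (-0.81, adjusted p = 0.0614) and was -1.52 ± 0.31 without replicate 3 (adjusted p = 0.00064). *Prrxl1* differed from P0 at 3 W by -0.92 in AN (7.77, 7.50 and 8.04 against 8.93, 8.44 and 8.69) and -0.73 in EN, with adjusted p of 0.00046 and 0.0029 but under the fold threshold, and its means at 5 W were 8.29 and 8.39.

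Ordered by the mean of a group, advillin was highest in 1 W AN, followed by P0 AN, P0 EN, 3 W AN, 5 W AN, 1 W EN, 3 W EN and 5 W EN. No neighbours in that order were separated, since the 3 arrays of each group overlapped with those of the next. *Isl1* had P0 AN first, then P0 EN, 1 W AN, 3 W AN, 5 W AN and 1 W EN, again with no separated neighbours, and 3 W EN and 5 W EN, without an array well above background, have no order. *Pou4f1* probe 2 and *Pou4f2* shared the first 5 places with advillin in the same order, and *Pou4f3* the first 4, its other groups having no array above background. No neighbours among these places were separated. For both *Runx1* probe 1 and *Prrxl1* a single pair of neighbours was separated, and the groups followed other orders.

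Whether the root difference itself had changed since P0 was tested with the difference of the 2 differences. No member was called at any age, where 1.12% of all tested probes were called at 1 or more of the 3 ages, although at 1 W an unadjusted p below 0.05 in limma with the fold threshold was reached by 4 of the 7 genes, *Avil*, *Isl1*, *Pou4f2* and *Pou4f3*, where 3.8% of all tested probes reached it. For advillin the root difference at 1 W exceeded that at P0 by 4.85 ± 1.44 (adjusted p = 0.275), for *Isl1* by 4.67 ± 1.56 (adjusted p = 0.356), for *Pou4f2* by 2.83 ± 1.04 (adjusted p = 0.431) and for *Pou4f3* by 3.77 ± 1.12 (adjusted p = 0.276), the last with no 1 W efferent array well above background. Without 3 W afferent replicate 3, which takes no part in these P0 and 1 W values, the fitted values were the same, the SE of advillin fell to 0.93, and all 4 genes were called at 1 W (adjusted p = 0.0128, 0.0219, 0.0481 and 0.0078 in the order named), where 1.37% of all tested probes were called in the same direction. *Pou4f1* probes 2 and 3 were called in that fit as well (adjusted p = 0.0097 and 0.0046). Leaving it out changed only the spread that the 8 groups share, so that this 1 array decides these calls. The array was singled out by its values for these same genes, so the calls without it are not independent of that choice. *Pou4f3* moreover passed the filter only through 1 W AN, a group of this comparison, so its call is not independent of the filter.

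The 3 probes of *Pou4f1* differed from each other. Probe 1 read between 13.31 and 15.82 on all 24 arrays, including the efferent arrays of 3 W (15.42, 15.38 and 14.80) on which probes 2 and 3 were not above background. It showed no called root difference (-0.30, -0.43, -0.06 and 0.73 at the 4 ages) and rose against P0 in AN at 3 W (1.32 ± 0.42, adjusted p = 0.0131) and 5 W (1.19 ± 0.42, adjusted p = 0.0236), and in EN at 3 W (1.08 ± 0.42, adjusted p = 0.0363). Each of these 3 rises was lost without P0 replicate 3 of its own root (1.06, 0.93 and 0.73), and each also without other single arrays of the groups compared: at 3 W in AN without 3 W replicate 1 (0.98), at 5 W in AN without P0 replicate 2 (1.14), 5 W replicate 1 (1.11) or 5 W replicate 3 (1.1), and at 3 W in EN without 3 W replicate 1 (0.96) or 2 (0.99).

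Over the 24 arrays *Pou4f1* probe 1 correlated with the 8 probes of *Avil*, *Isl1*, *Pou4f2*, *Pou4f3* and the rest of *Pou4f1* at r between -0.542 and -0.381. With the 14 other probes that hold the same GA run it correlated at 0.736 to 0.991 (median 0.933), against a median of 0.012 over all tested probes. These correlations are descriptions over arrays that share groups. The value read for *Pou4f1* thus depended on the probe, and the brightest one is that with the GA run printed above.

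**Figure D3:**
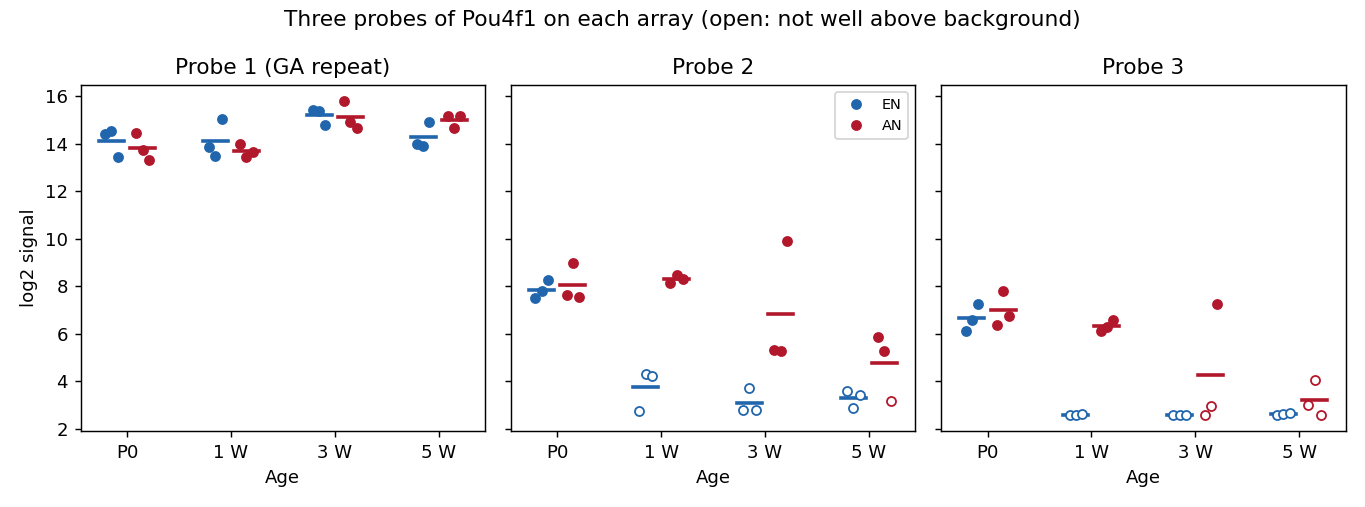
Log2 signal of the 3 *Pou4f1* probes on each array (EN blue, AN red, bars at means of 3 arrays, open points not well above background). Probe 1, with the GA run, lies between 13.31 and 15.82 in every group, whereas probes 2 and 3 are level between the roots at P0 and separate at 1 W, with 3 W afferent replicate 3 at 9.91 and 7.25.

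Between the same 8 probes, r over the 24 arrays was 0.933 to 0.996 in 28 pairs (median 0.951), and 0.926 to 0.996 without 3 W afferent replicate 3. *Runx1* probe 1 correlated with these probes at 0.56 to 0.717, and probe 2, called lower in both roots, at 0.493 to 0.668. For *Runx1* probe 3 the range was -0.173 to 0.027, and for *Prrxl1* 0.281 to 0.411. Among 17723 other genes, the 3 most like advillin were *Prph*, the intermediate filament peripherin of peripheral neurons (r = 0.995), *Scn10a*, a sodium channel of pain-sensing neurons (0.989), and *Tubb3*, a neuronal tubulin (0.988). Most like *Isl1* were its relative *Isl2* (0.983), *Camsap3* (0.979), which binds microtubule ends, and *Elavl2* (0.978), a neuronal RNA-binding protein.

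*Pou4f2* was closest to *Pmfbp1* (0.960), *Dpysl3* (0.955) and *Prokr2* (0.955), and *Pou4f3* to *Prokr2* (0.987), *Slc6a19* (0.982) and *Gm8773* (0.980). *Runx1* probe 1 was closest to *Tubb2a* (0.943), *Ankrd29* (0.913) and *Rarres1* (0.897). The genes closest to *Pou4f1* probe 1 were named *Herc2* (0.991), *St6galnac1* (0.983) and *Klra1* (0.980), and 2 of those 3 probes hold the GA run. These r values describe shared group differences over 24 arrays and were not tested.

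The summed signal of the 7 neuronal genes moved with these members. It was 16.55 to 17.79 in AN and 16.52 to 16.97 in EN at P0, and 17.34 to 17.44 against 15.10 to 15.40 at 1 W. At 3 W it was 14.99 to 18.73 in AN and 14.90 to 15.08 in EN, and at 5 W 14.64 to 16.47 and 15.09 to 15.41. All 7 neuronal genes were well above background in every group. Against P0, 4, 6 and 5 of the 7 were called lower in EN at 1 W, 3 W and 5 W, and 0, 1 and 3 in AN. Of all 36409 tested probes, 2066, 5242 and 5273 were called lower in EN at these ages, and 1317, 4643 and 4615 in AN. In tissue of mixed cells, less neuronal material and less RNA of a gene within that material cannot be told apart. The source of the neuronal signal in the roots was not tested, and neither was the part of neuronal content in the differences above.

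**Figure D4:**
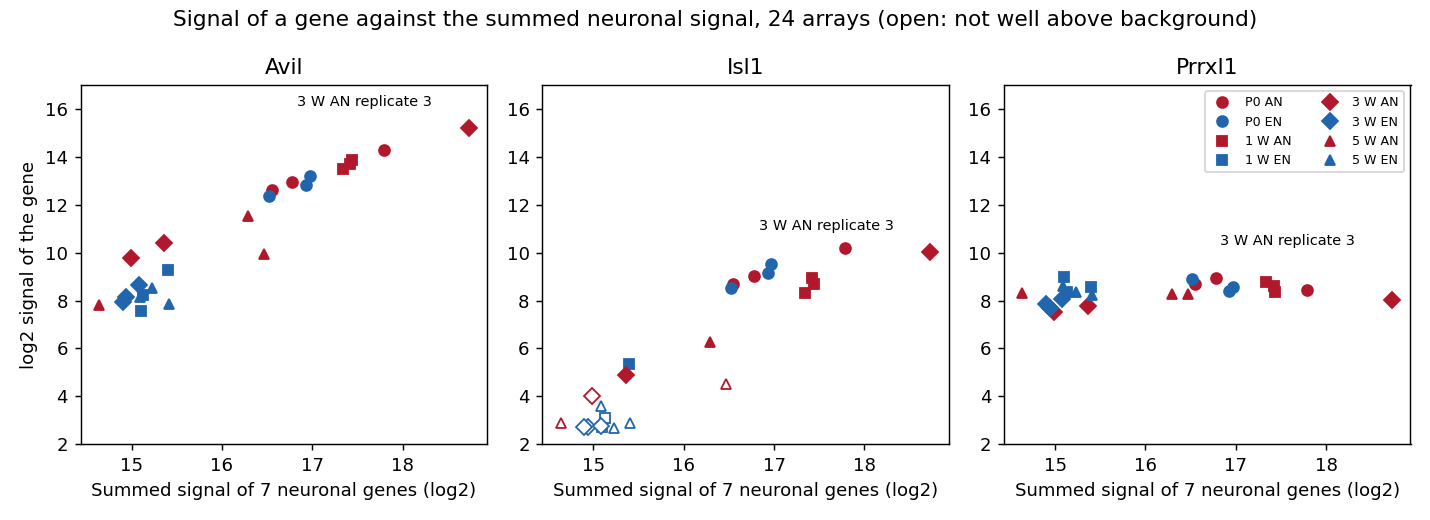
Log2 signal of *Avil*, *Isl1* and *Prrxl1* on each of the 24 arrays against the summed log2 signal of 7 neuronal marker genes on the same array (EN blue, AN red, shapes for age, open points not well above background). *Avil* and *Isl1* are higher on arrays with more neuronal signal, 3 W afferent replicate 3 lies at the right end (18.73), and *Prrxl1* stays between 7.50 and 8.97.

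Other cell type markers were measured beside the members. Of the Schwann cell genes only *S100b* was called between the roots, and only at P0, where it was lower in AN (-1.13 ± 0.12, adjusted p = 0.00069). Of 5 motor neuron genes (*Chat*, *Slc5a7*, *Slc18a3*, *Mnx1* and *Lhx3*), 3 or 4 were above background on all arrays of a group, the summed level was 8.77 to 10.41, and none of the 4 tested was called between the roots at any age. The 3 satellite glia genes (*Fabp7*, *Kcnj10* and *Glul*) gave 1, 2 and 2 calls higher in AN at 1 W, 3 W and 5 W, with summed levels after P0 of 15.00 to 15.74 in AN and 14.19 to 14.75 in EN. Astrocyte genes (*Gfap*, *Aqp4* and *Slc1a2*) gave 3 of 3 calls higher in AN at 1 W and at 5 W, with summed levels at 1 W of 11.80 to 12.56 in AN against 8.13 to 11.11 in EN. Of 6 spinal cord interneuron genes, 3 were called higher in AN at 5 W (*Slc32a1*, *Gad2* and *Slc6a5*), with a median summed level of 10.82 against 9.28 in EN. Macrophage and leukocyte genes gave no call between the roots at any age, platelet and red cell genes gave none either, and 1 of 5 mast cell genes (*Kit*) was called higher in AN at 3 W and at 5 W. Of 4 oligodendrocyte genes, 1 (*Opalin*) was called higher in AN at 5 W.

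Against P0 these markers moved as well. Their counts can be set beside the numbers of all tested probes called lower at the same age, given above. Called higher at 3 W were 5871 of the 36409 tested probes in EN and 5474 in AN, and at 5 W 5625 and 5518. Of the 3 satellite glia genes 2 were called lower and 1 higher at 3 W and at 5 W in both roots, with median differences of -3.53 and -4.24 in EN and -1.01 and -1.02 in AN, from summed levels at P0 of 15.28 to 15.42 in EN and 15.09 to 15.25 in AN. Of the 6 spinal cord interneuron genes 4 were called lower in EN at each later age, and 3, 1 and 0 in AN at 1 W, 3 W and 5 W. At 5 W, 4 of 5 mast cell genes were lower in EN and 3 in AN, while 4 of 7 macrophage and leukocyte genes were higher in EN and 2 in AN. Oligodendrocyte genes gave 2 of 4 calls higher in EN and 3 in AN at that age, Schwann cell genes 1 of 4 in EN and 2 in AN, and platelet and red cell genes 2 of 5 in EN and 1 in AN. Of 3 astrocyte genes 2 were higher in AN and 1 was lower in EN, and of the 4 tested motor neuron genes 2 were lower in EN, with 1 lower and 1 higher in AN. The part of these cells in the results was not tested.

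Since *Isl1*, the POU factors and advillin can be set against each other on the same array, their change relative to advillin was described, a comparison chosen after the values had been seen and given without a test. The level of such a ratio depends on the probes, and its shift is what is described. Relative to advillin, *Isl1* probe 1 lay at -3.97 ± 0.09 (SD, n = 3) in P0 AN and at -5.04 ± 0.22 in 1 W AN, a shift of -1.07 with no overlap, and at -3.74 ± 0.10 in P0 EN. *Isl1* probe 2 shifted by -0.77, again with no overlap. On 3 W afferent replicate 3, *Isl1* probe 1 stood at -5.19, just below the 1 W AN range of -5.17 to -4.78 and outside the P0 range of -4.07 to -3.92. By both probes *Isl1* was thus lower relative to advillin at 1 W than at P0 in the dorsal root. The roots at P0 did not overlap on this ratio either, and AN was the lower. Probe 1 lay at -4.07 to -3.92 in P0 AN and -3.86 to -3.67 in P0 EN, and probe 2 at -5.03 to -4.74 and -4.6 to -4.48.

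For the POU factors the picture was mixed. *Pou4f1* probe 2 shifted relative to advillin by -0.16, without overlap, and probe 3 by -1.08, so that the size differed between probes of the gene. *Pou4f2* (-0.34) and *Pou4f3* (0.03) overlapped between P0 and 1 W in AN. Between the roots at P0, *Pou4f1* probe 2 did not overlap on this ratio, at -5.3 to -5.09 in AN and -5.02 to -4.89 in EN. Nor did *Pou4f2*, at -5.13 to -4.98 and -4.94 to -4.5, whereas *Pou4f1* probe 3 and *Pou4f3* overlapped. Separation on the ratio was thus not particular to age. A ratio on 1 array shows unequal change of 2 signals and does not tell which of them moved.

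**Figure D5:**
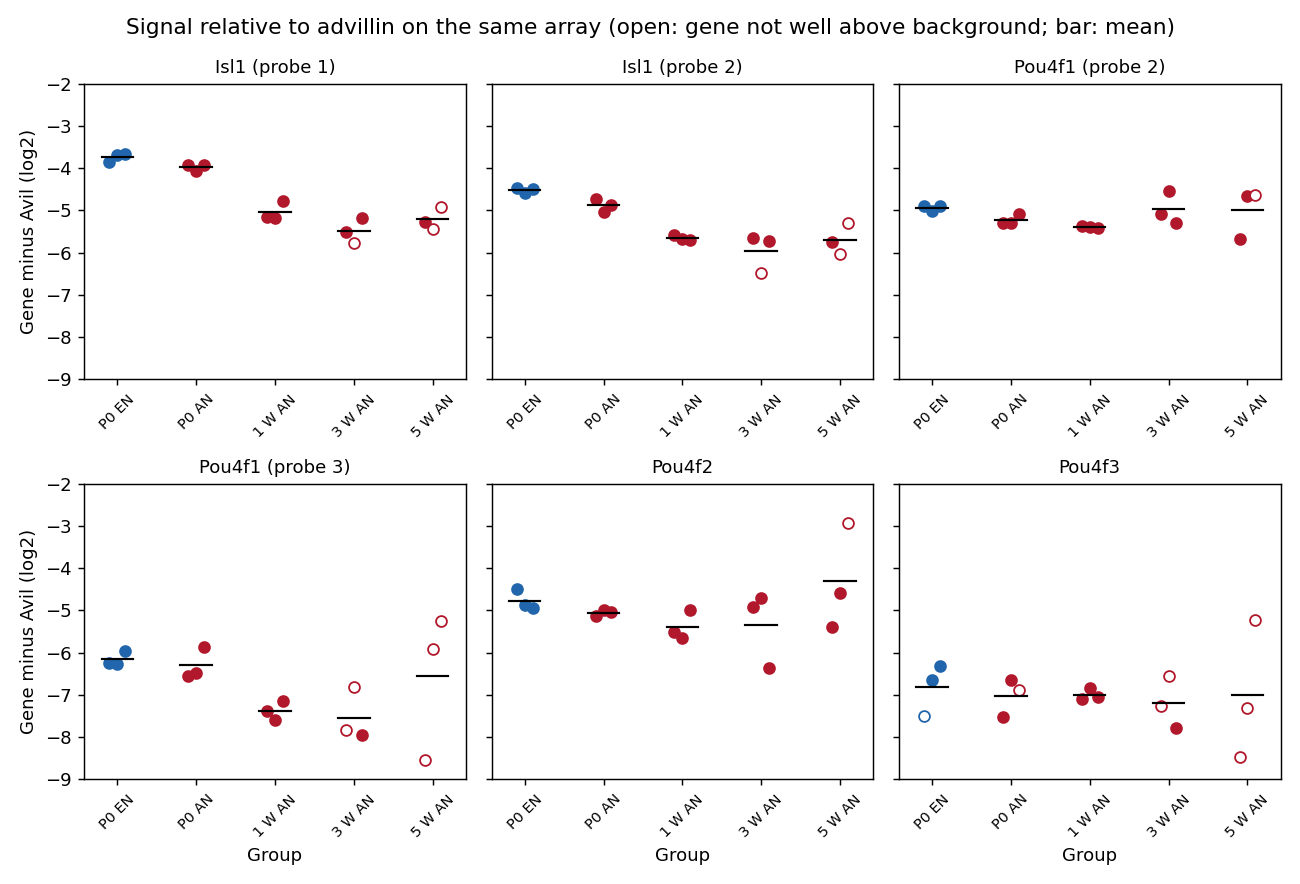
Log2 signal of *Isl1*, *Pou4f1* (probes 2 and 3), *Pou4f2* and *Pou4f3* minus that of advillin on the same array, for P0 EN (blue) and AN at the 4 ages (red), with bars at the mean of 3 arrays and open points where the gene was not well above background. Both *Isl1* probes lie lower at 1 W than at P0 in AN (shifts of -1.07 and -0.77), whereas *Pou4f3* overlaps.

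Further factors of the sensory lineage were taken as a list of 24 genes, of which 20 had a tested probe (*Neurog2*, *Neurod1*, *Neurod4* and *Tlx3* had none). None was called between the roots at P0 or 5 W, 4 were higher in AN at 1 W, and 1 was higher and 2 were lower at 3 W. The median difference of the 20 at 1 W was -0.08, against -0.06 over all tested probes. Called at 1 W were *Prdm12*, needed for pain-sensing neurons (11 in AN and 5.81 in EN, 5.19 ± 1.30, adjusted p = 0.0282), *Isl2*, the relative of *Isl1* (12.15 and 7.09, 5.06 ± 1.06, adjusted p = 0.0098), *Shox2*, known from touch-sensing neurons (7.17 and 3.63, 3.54 ± 0.91, adjusted p = 0.0317), and *Klf7*, which maintains pain-sensing neurons (13.27 and 12.25, 1.02 ± 0.17, adjusted p = 0.0038). At 3 W *Shox2* was still higher in AN (at least 3.33-fold, adjusted p = 0.0374), and *Foxs1* (-1.1 ± 0.21, adjusted p = 0.0037) and *Etv4* (-1.33 ± 0.19, adjusted p = 0.00036) were lower. The list gave, without 3 W afferent replicate 3, 5 higher genes at 1 W, 0 higher and 1 lower at 3 W, and 2 higher at 5 W.

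Transcripts by which mature sensory neurons are recognised gave 9 of 12 genes higher in AN at 1 W, with a median difference of 4.69, against -0.06 over all tested probes. None was called at P0, and only *Tac1*, the gene of substance P, at 3 W and at 5 W. Among the largest at 1 W were *Calca*, the gene of the peptide CGRP (5.36 ± 1.19, adjusted p = 0.0132), *Mrgprd* (5.10 ± 1.34, adjusted p = 0.0367), *Tac1* (5.09 ± 0.93, adjusted p = 0.0052), *Prph* (4.97 ± 0.98, adjusted p = 0.0071) and *Scn10a* (4.95 ± 1.12, adjusted p = 0.0148). The summed level of the 12 genes was 14.93 to 16.61 in P0 AN, 14.89 to 15.57 in P0 EN, 16.10 to 16.44 in 1 W AN and 11.28 to 12.30 in 1 W EN. Of the 12, 10 were called at 1 W without 3 W afferent replicate 3, and none at 3 W, where the median difference went from 2.67 to 1.00.

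Relatives of advillin also had probes on the array. Of the 7 other gelsolin and villin family genes, 6 had a tested probe (*Scin* had none), and none of the 6 was called between the roots at any age, with median differences from -0.33 to 0.13. Against P0, 4 of the 6 were called higher at 5 W in AN (median 1.18) and 4 of 6 in EN (median 1.39), where advillin was lower, and of all tested probes 15.2% were called higher in AN and 15.4% in EN.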

How the data were processed

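The 24 arrays were 1-colour Agilent mouse arrays with 3 arrays in each of 8 groups, grouped by the fibre and stage in the deposited labels. The authors deposited 1 table of log2 values, which they had quantile-normalised in GeneSpring, and the scanner intensity of every spot, written by Agilent Feature Extraction 10.7.1.1 with its background mark. The log2 table was used as it stood, and the intensity gave the alternatives. Of 56605 gene probes, the 36409 with all 3 arrays of some group well above background were fitted in limma 3.58.1 (R 4.3.3) with 8 group means over all 24 arrays and 16 residual degrees of freedom. Where no array of a group was above background, the fold is given as a lower bound, against the mean over its arrays of the higher of the lowest signal well above background and the probe's own signal. Replicate numbers paired the afferent and efferent arrays of a slide (deviations from the group means correlated at 0.107 to 0.646 in all 12 pairs), so paired values are given where they change a call. The fit was tested on simulated data. Genes named outside the 7 were those of fixed lists called between the roots, at most 6 a list by size, and the 3 likest genes over the arrays. Values of some single genes of these lists are not reported here. The genes and lists were chosen with earlier results of these data known. Alternatives covered signal, background correction, filters, blocks, array weights, thresholds and each array left out. Array coordinates are mm9, and Python 3.11.15 was used for summaries and figures.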

Additional observations from a re-analysis of the deposited data

How the results depend on the processing

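Signal near background and 3 arrays a group limit what could be called. Requiring signal above background on all 24 arrays left *Isl1*, *Pou4f2* and *Pou4f3* untested and gave 1 called gene at 1 W in place of 4, and 2 in place of 5 against P0 in EN and in AN. Of the 26471 probes then tested, 485 were called between the roots at 1 W, in place of 1014 of 36409. At 5 W against P0, 6441 of them were called in EN and 6330 in AN, in place of 10898 and 10133. At 3 W, with 1 gene called, there were 0 without a filter on dim probes or with only the groups compared, 2 with the slide as a block, with array weights or with any probe of a gene, and 3 by unadjusted p. In either direction, 1134 of all 36409 tested probes were called at 3 W in the main fit. There were 965 of 56605 without the filter, 673 with only the groups compared, 1473 with the slide block, 1646 with array weights and 2054 by unadjusted p. With the replicate number as a block, pairing the roots, there were 2, and 5 at 1 W, and no other count moved by over 1.5 times. All tested probes gave 1742 calls at 3 W and 1379 at 1 W with that block. For a root difference that had changed since P0, with none called, there were 3 with array weights, 2 with only the groups compared and 4 by unadjusted p. The calls over all tested probes moved too, from 23, 191 and 339 at 1 W, 3 W and 5 W in the main fit. They were 750, 549 and 385 with array weights, 648, 198 and 39 with only the groups compared, and 1384, 1487 and 1674 by unadjusted p. Leaving out 1 array at a time gave 2 to 5 genes at 1 W, 0 to 2 at 3 W and 0 to 4 for a changed root difference, the 5 and the 4 without 3 W afferent replicate 3 and the 2 at 1 W without 1 W afferent replicate 3 or 1 W efferent replicate 1 or 2. Without these arrays of 1 W, all tested probes gave 508, 360 and 612 calls at 1 W in the order named. Of the values of single genes under the alternatives that kept all arrays, 282 kept their direction and side of the threshold, 9 passed it, 3 lost it and 2 turned sign.

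None of the differences whose sign turned was called. Leaving out 1 array, the root difference at P0 ranged from -0.02 to 0.81 for *Avil*, -0.19 to 0.55 for *Isl1*, -0.34 to 0.52 for *Pou4f2*, -0.41 to 0.72 for *Pou4f3*, -0.22 to 0.54 for *Runx1* and -0.04 to 0.21 for *Prrxl1*. At 1 W it ranged from -0.75 to 0.02 for *Pou4f1* probe 1 and -0.18 to 0.11 for *Prrxl1*. At 3 W it ranged from -0.40 to 0.17 for *Pou4f1* probe 1 (0.19 with array weights), -0.30 to 0.72 for *Runx1* (-0.20 with array weights) and -0.24 to 0.03 for *Prrxl1*. At 5 W it ranged from -0.24 to 0.39 for *Pou4f2*, -0.07 to 0.16 for *Pou4f3* and -0.19 to 0.00 for *Prrxl1*. The cause was not tested.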
